A study of Mus musculus with 6 samples.

Results

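The nuclei described here form the Rspo3-expressing capsule population of the mouse adrenal gland, 780 of the 20982 nuclei kept from 6 single-nucleus RNA libraries. They were chosen by their UMIs (unique molecular identifiers, 1 per captured RNA molecule). A nucleus counted as capsule when it held at least 3 of the 7 genes Rspo3, Luzp2, Ntng1, Gpc3, Vwc2, Npnt and Fgf13, with Rspo3, Vwc2 or Ntng1 among them. It also had to hold more of these than of Gata4, Prdm6, Fbn2, Ptprq, Frem1, Nrg2 and Pdgfra, and fewer than 3 of the chromaffin genes Th, Dbh, Slc18a1, Chga and Chgb. The mirror of that rule gave 1219 Gata4/Prdm6 stromal nuclei, the class used here for comparison. Each library came from 1 pair of whole adrenal glands of a female C57BL/6 J mouse of 10 to 11 months, dissociated in a Tween, salts and Tris buffer, stained with DAPI and sorted. By title and genotype label, 2 libraries were knockout for Tmem127 (KO), the phaeochromocytoma susceptibility gene the series is about, and 3 were wild type (WT). The title of the sixth calls it WT and its genotype field KO, so it is given apart as the unassigned library. The labels do not give the deleted part of Tmem127, the tissue or time of deletion or the breeding of the controls, and they name no other difference between the groups. Each library stands for 1 pair of glands, so a spread between libraries includes handling and sequencing, and p-values measure only that spread.

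The adrenal capsule is a thin mesenchymal sheath around the steroid-producing cortex. Its cells secrete R-spondin 3, which binds LGR receptors, removes the ubiquitin ligases ZNRF3 and RNF43 from the surface of target cells and so raises their sensitivity to Wnt ligands, and this keeps the aldosterone-producing zona glomerulosa beneath the sheath in place. In return, zona glomerulosa cells secrete Sonic hedgehog, which capsule cells receive through PTCH1 and SMO and read out through the GLI transcription factors. Gli1-positive capsule cells are a known source of new cortical cells.

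Depth differed between libraries. Capsule nuclei had a median of 3835.5 and 955.5 UMIs in KO replicates 1 and 2, of 4995, 1284 and 3137.5 in WT replicates 1 to 3 and of 3233 in the unassigned library, so KO replicate 2 and WT replicate 2 carry the least information. The capsule counts summed per library ran from 106051 to 869516 UMIs. KO replicate 1 and WT replicate 1 were processed with a later Cell Ranger version and gene annotation than the other 4, and each annotation batch held both genotypes. Between any pair of libraries, 2 to 9 cell barcodes were shared.

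Clustering of all nuclei, which did not use the rule, put 738 of the 780 members (94.6%) in a single cluster of 829 nuclei, whose 6 leading genes by fold were Rspo3, Luzp2, Ntng1, Gpc3, Vwc2 and Npnt. All 6 are markers of the capsule, but the rule used the same genes, so they are no independent check of the label. Fibroblast markers of other tissue came second in that cluster. Of the 42 members elsewhere, 13 lay with Schwann and sustentacular nuclei and 7 with pericytes. Members that only just met the rule, with exactly 3 of the 7 genes, numbered 157, and 80.3% of them lay in the capsule cluster. Of the 257 nuclei just outside, with exactly 2 of the genes and every other term met, 15.2% did. The 91 nuclei of the cluster that the rule missed were shallow, with a median of 1466 UMIs.

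Because the rule used these genes, their levels describe the members and test nothing. Levels are given as CPM, the UMIs of a gene per 1000000 UMIs summed over the nuclei of a class in a library, as lowest, median and highest of the 6 libraries. A class with under 5 nuclei in a library was left out there, so mesothelial values are those of 4 libraries. Unspliced RNA is a large part of nuclear RNA and favours long genes, so levels are compared between classes and not between genes. Rspo3 (chromosome 10, 29452416 to 29535867, mm10) stood at 2743, 3091 and 3538 CPM in capsule nuclei and at 2.56, 12.5 and 16.1 CPM in Gata4/Prdm6 stromal nuclei. Every capsule library lay far above every stromal library, and the zona glomerulosa, next highest by its median, stood at 41.6, 52.3 and 68.0 CPM. Rspo3 had a UMI in 92.2% of members, against 1.83% of the deeper zona fasciculata nuclei (median depths 2976 and 6761 UMIs), which should lack it. After thinning to 1000 UMIs a nucleus these shares were 82.5% and 0.234%.

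The other choosing genes were not equally private to the capsule. Npnt, which encodes the integrin ligand nephronectin, stood at 343, 491 and 653 CPM, and its next class, endothelium, at a median of 30.7 CPM. Luzp2 stood at 1357, 1793 and 2715 CPM and was nearly absent from the stroma (median 3.87 CPM), but Schwann and sustentacular nuclei held 261, 502 and 607 CPM. Vwc2, a secreted BMP antagonist, stood at 538, 725 and 1031 CPM, and mesothelial nuclei came next at a median of 334 CPM. Ntng1, the membrane-anchored netrin-G1, stood at 2275, 2531 and 2827 CPM in the capsule and at a median of 230 CPM in the stroma, its next class. The heparan sulphate proteoglycan gene Gpc3 (capsule median 2136 CPM) was shared with fibroblasts of the surrounding tissue at a median of 1207 CPM. Fgf13, an intracellular FGF homologue that binds sodium channels, was the patchiest: it had a UMI in 33.1% of members, although its level was 700, 1190 and 1533 CPM.

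**Figure D1:**
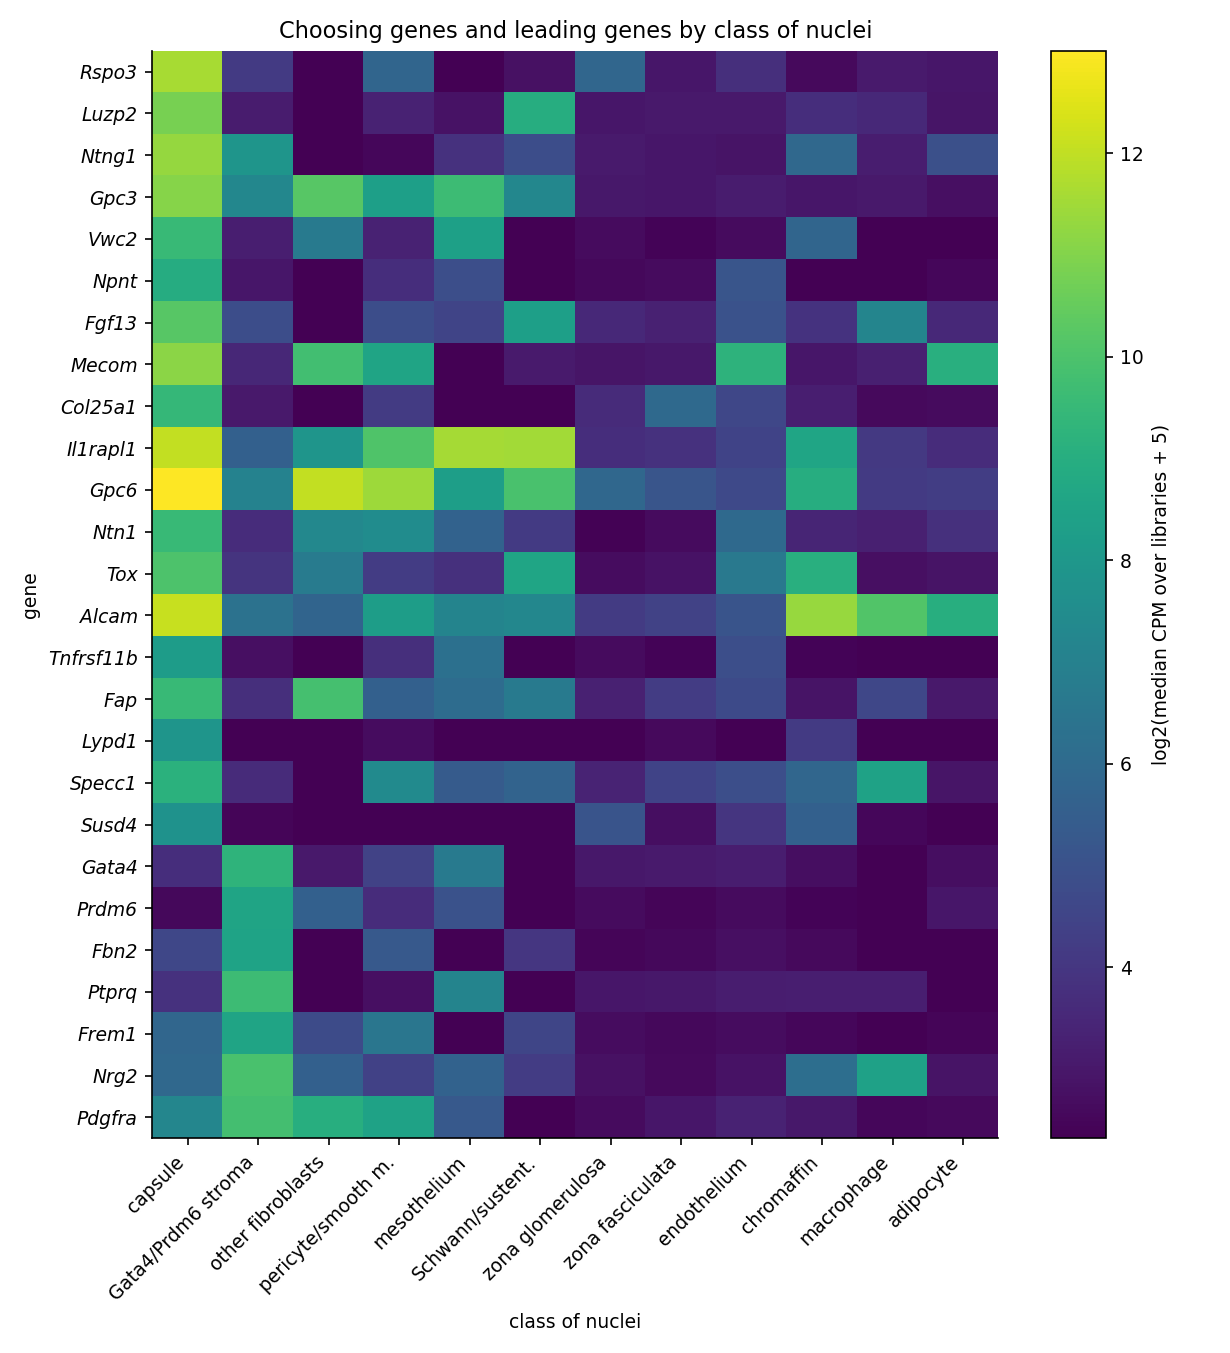
Median CPM over libraries, as log2 of CPM plus 5 (colour), for the choosing genes and 12 of the genes that led over Gata4/Prdm6 stroma (rows) in 12 classes of nuclei (columns). The first 7 rows are the capsule genes of the rule and the last 7 the stromal ones; the capsule column is bright in the former and dark in most of the latter.

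Against the stromal nuclei the capsule carried a program of its own, and since the rule chose these classes it is described without a test. Of 5874 genes with at least 20 CPM in every library of at least 1 of the 2 classes, 16.5% were higher in capsule nuclei in all 6 libraries and 22.3% lower. The 5874 exclude the genes of the rule. The gene lists below were counted whole, with lower members and any the rule used. Their counts and these shares thus have unlike bases. The widest gap outside the rule belonged to Mecom, a zinc finger transcription factor, at 1503, 2244 and 2384 CPM in the capsule and 0, 6.34 and 33.7 CPM in the stroma, a median difference of 7.72 on the log2 scale of CPM plus 5. The membrane collagen Col25a1 stood at 587, 680 and 1141 CPM against 0, 3.25 and 11.9 CPM. Next came the synaptic adhesion gene Il1rapl1 (median difference 6.34), the glypican Gpc6 (5.98), the axon guidance ligand Ntn1 (5.91), the HMG-box gene Tox (5.89), the adhesion molecule Alcam (5.75) and Tnfrsf11b, which encodes the secreted decoy receptor osteoprotegerin (5.70). The list went on with Fap, fibroblast activation protein (5.69), Lypd1 (5.57), Specc1 (5.40), Susd4 (5.11), Adgrb3 (5.08), the noncoding Gm12381 (5.05), Etl4 (5.03), the channel gene Trpm3 (4.97), Adamtsl5 (4.88), the transcription factor Foxp2 (4.87), Cnksr2 (4.86) and Samd12 (4.77). These 20 genes were each higher in the capsule in 6 of 6 libraries. The 10 at the other end were Dpp6 (-6.72), Ctnna2 (-6.61), Gm30382, Gm20629, Dync1i1, Rtl4, Greb1l, Lhfpl2, Tenm4 and Adamts19 (-4.62). Dpp6, a potassium channel subunit, was at 0 to 198 CPM in the capsule and 1470 to 2023 CPM in the stroma.

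Some of these leading genes were shared with other classes. Il1rapl1 was also high in mesothelial (median 3035 CPM) and in Schwann and sustentacular nuclei (2952 CPM), Alcam in chromaffin nuclei (2596 CPM) and Fap in other fibroblasts (915 CPM, against 735 CPM in the capsule). Of 4667 genes with at least 20 CPM in every capsule library, 60 (1.29%) had their lowest capsule library above the highest library of each of the 11 other classes compared, and 53 of the 60 were no part of the rule. Lymphoid, dendritic and unnamed clusters, and cortical clusters other than the main zona glomerulosa and zona fasciculata ones, were not in that comparison. Mesothelium entered it with 4 libraries. Among the 53, the largest distances to the next class were those of the noncoding 9130410C08Rik (4.49), Slc9b2, a sodium/proton exchanger (3.89), Lmntd1 (3.87), Lypd1 (3.75) and Klf5, a Kruppel-like transcription factor (3.59), on the log2 scale. Lypd1 stood at 74.4, 235 and 277 CPM, and its next class, chromaffin nuclei, at a median of 12.8 CPM. Klf5 stood at 175, 291 and 342 CPM, over a median of 19.7 CPM in pericytes and smooth muscle. Further members of the 53, named here after their values were seen, were the tight junction scaffold Tjp1 (capsule median 1955 CPM, next class 454), the adrenergic receptor Adra1b (170 against 27.0), the amino acid transporter Slc7a2 (1046 against 193) and Inhba, the beta A subunit of activin, at 25.8, 40.7 and 75.2 CPM.

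Among 32 stromal transcription factors, 11 were higher and 10 lower in capsule than in stromal nuclei in every library, where 16.5% and 22.3% of the 5874 genes above were. Foxd1, a forkhead factor, was low but nearly private to the capsule at 18.9, 48.2 and 67.2 CPM, with no other class above a median of 3.39 CPM. The nuclear receptor Nr2f2 stood at 941, 1309 and 1486 CPM against 557, 641 and 794 CPM in the stroma. Ebf1 (852 to 1434 CPM in the capsule) and Ebf2 (18.7 to 98.0 CPM) separated the capsule from the stroma, yet other fibroblasts carried far more of both, at medians of 8041 and 2938 CPM. On the low side stood Wt1 (65.0 against 350 CPM), Tcf21 (6.21 against 28.8), Osr2 (3.56 against 79.3), Zeb2 (287 against 1286) and Tcf4 (357 against 1835). Gata4 and Prdm6, also on that side, were used by the rule. Nr5a1, the master regulator of steroid-producing cells, had a capsule median of 30.6 CPM, below the 320 CPM of the zona fasciculata.

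The matrix genes split. Of 30 collagen genes, 11 were higher in the capsule than in the stroma in every library and 5 lower; of 46 glycoprotein and proteoglycan genes, 12 were higher and 14 lower. Over the 5874 genes the shares were 16.5% and 22.3%. The list counts also take in genes below 20 CPM, so they cannot be set directly against those shares. A capsule median of at least 20 CPM was reached by 25 of the 30 collagen and 30 of the 46 glycoprotein and proteoglycan genes. Col8a1, a short-chain collagen, stood at 399, 565 and 650 CPM in the capsule and 7.96, 56.8 and 111 CPM in the stroma. Col12a1, which links fibrils, stood at 349, 367 and 544 CPM and lay above every library of the other classes compared. Of the fibrillar collagens, Col1a2 was lower (median 168 against 280 CPM). Periostin (Postn, 642 against 90.7 CPM), tenascin X (Tnxb, 423 against 34.7), Smoc2 (589 against 59.4), Fras1 (356 against 19.9) and decorin (Dcn, 221 against 36.5) were on the capsule side. Laminin alpha 1 (Lama1, 10.7 against 348 CPM), laminin alpha 2 (Lama2, 1949 against 4114) and Sparcl1 (14.1 against 432) were on the stromal side. Of 16 integrin genes, 7 were higher and 3 lower in the capsule: Itga7 stood at 95.9, 117 and 142 CPM against a stromal median of 0.394, and Itga8, whose product binds nephronectin, at a median of 117 against 38.4.

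Genes named for axon guidance and synaptic adhesion split evenly, with 11 of 42 on each side in every library, against 16.5% higher and 22.3% lower over the 5874 genes. The capsule held Nlgn1 (median 3117 against 615 CPM), the ephrin receptor Epha7 (428 against 14.6) and its ligand gene Efna5 (683 against 156). It also held Lrrc4c, which encodes the partner of netrin-G1, at 209 against 11.5 CPM, although Schwann and sustentacular nuclei carried more of it (3211 CPM). The stroma held Slit2 (66.9 in capsule against 243 CPM), Slit3 (171 against 761), Robo1 (257 against 1032) and Robo2 (31.7 against 325). Among growth factor genes, Pdgfc (673 against 223 CPM) and Pdgfa (86.6 against 13.5) lay on the capsule side and the receptor genes Pdgfra, which the rule used, and Fgfr2 (209 against 531) on the stromal side. Of 25 receptor and retinoid genes, 6 were higher and 5 lower, and 19 had a capsule median of at least 20 CPM. Nr3c2, the mineralocorticoid receptor, stood at 757, 889 and 1016 CPM in the capsule and 185, 269 and 305 CPM in the stroma. The retinoic acid receptor gene Rarb stood at a median of 211 against 12.9 CPM, and Esr2 at 0.908 against 151. Agtr1b, an angiotensin II receptor of the zona glomerulosa, had a capsule median of 160 CPM against 7.09 in the stroma and 1192 in the zona glomerulosa. Summed zona glomerulosa markers, a list that includes Agtr1b itself, reached 426 to 954 CPM in capsule nuclei against a median of 7855 CPM in their own class. Summed zona fasciculata markers reached 870 to 1846 CPM in capsule nuclei, against a median of 3474 CPM in theirs. The part of such cortical RNA in the Agtr1b level was not tested.

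Of 16 genes on the list of R-spondins, Wnt ligands and the ligand-processing genes Wls and Porcn, 7 had a capsule median of at least 20 CPM. Against the stroma 3 were higher in all 6 libraries (Rspo3, which the rule used, Rspo1 and Wnt2b) and 2 lower, where 16.5% and 22.3% of the 5874 genes were. Wnt2b stood at 64.1, 84.9 and 114 CPM in the capsule and at 0, 0 and 3.15 CPM in the stroma, and mesothelial nuclei were next at 0, 18.1 and 161 CPM. Rspo1, a second R-spondin, stood at 43.6, 57.9 and 75.7 CPM, below the mesothelium at 122, 262 and 363 CPM. Wnt5b had a capsule median of 108 CPM, with 57.3 in the stroma, and overlapped with it. Wnt4, the ligand of the zona glomerulosa, was at 0 to 58.4 CPM in the capsule and 212 to 739 CPM in the zona glomerulosa.

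Of the genes that receive R-spondins, Lgr4, Znrf3 and Rnf43 were lower in the capsule than in the zona glomerulosa. Lgr5 (median 8.90 in the capsule against 4.43 CPM) and Lgr6 (2.89 against 0.189) were low in both classes and overlapped. Lgr4, the R-spondin receptor of the cortex, stood at 114, 173 and 258 CPM in capsule nuclei against 533, 610 and 744 CPM in the zona glomerulosa, with no overlap. Znrf3 stood at 305, 346 and 445 CPM against 1000, 1043 and 1118 CPM, and Rnf43 at a median of 5.80 against 118 CPM. Of the 10 beta-catenin target genes, Lef1 had a median of 15.1 CPM in the capsule and 526 in the zona glomerulosa, Apcdd1 12.2 and 122, Nkd1 81.0 and 312, and Axin2 38.4 and 114. The first 3 did not overlap between these classes, and Axin2 did, from 0 to 68.8 CPM in the capsule and from 63.1 to 176 CPM in the zona glomerulosa. Ccnd1 did not overlap either (median 11.1 against 54.4 CPM). Nkd2 went the other way, with a median of 24.2 CPM in the capsule and 1.59 in the zona glomerulosa. Tcf7l2 overlapped, at 317 and 355 CPM, as did Tcf7 (20.5 and 71.6) and Sp5 (0.860 and 1.41), and Dkk4 was at 0 in both classes. How many of all genes separate the capsule from the zona glomerulosa was not counted. Separations between these classes, that of Lgr4 included, are therefore given as values only. Wnt receptor genes were mixed: Ror1 (740 against 107 CPM) and Fzd2 (33.5 against 1.53) were higher in the capsule than in the zona glomerulosa, and Lrp6 overlapped (219 against 229). Of 20 receptor genes, 2 (Fzd2 and Fzd6) were higher and 7 lower in the capsule than in the stroma in every library. Over the 5874 genes above the shares were 16.5% and 22.3%. A capsule median of at least 20 CPM was reached by 10 of the 20. Ror1 and Ror2, receptors of noncanonical Wnt ligands, were on the lower side at medians of 740 against 1107 and 213 against 286 CPM.

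**Figure D2:**
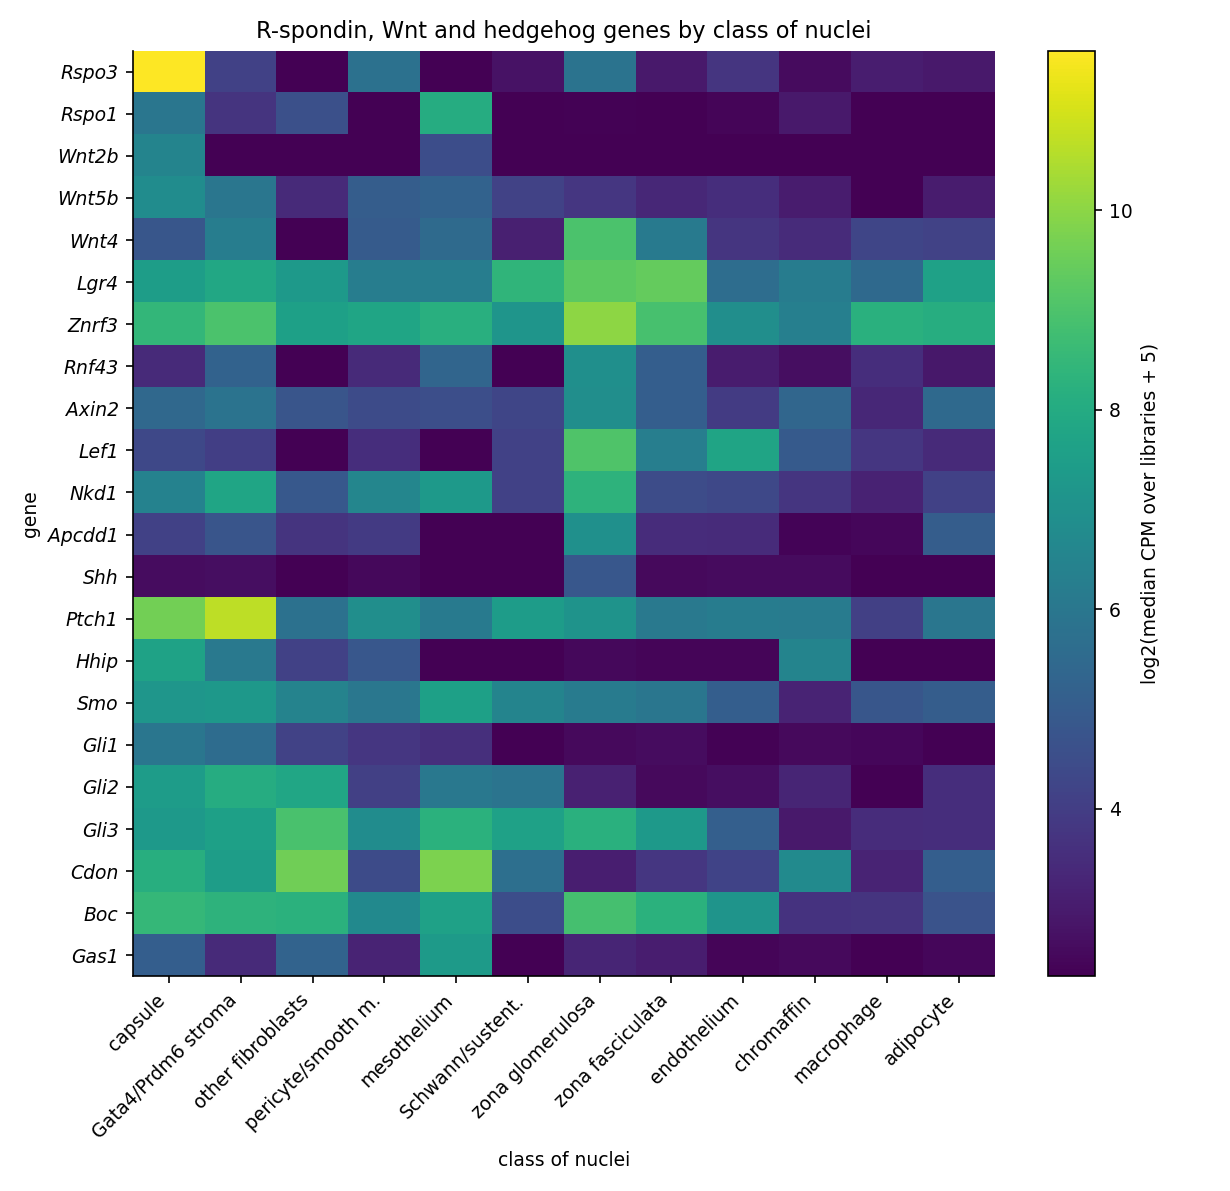
Median CPM over libraries, as log2 of CPM plus 5 (colour), for R-spondin, Wnt and hedgehog genes (rows) in 12 classes of nuclei (columns). Rspo3 and Wnt2b peak in the capsule column, Lgr4 and Znrf3 are brighter in the zona glomerulosa (median 610 and 1043 CPM), and Ptch1 is brightest in the capsule and in Gata4/Prdm6 stroma.

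The hedgehog ligand gene Shh was at 0, 1.17 and 4.17 CPM in capsule nuclei and at 4.16, 23.7 and 40.3 CPM in the zona glomerulosa. The receptor gene Ptch1 (chromosome 13, 63508328 to 63573598) stood at 354, 782 and 1135 CPM in the capsule, below the 1136, 1635 and 2009 CPM of the stroma and above the zona glomerulosa at 93.3, 131 and 169 CPM. Gli1 was shared by capsule (28.4, 58.0 and 66.7 CPM) and stroma (28.1, 43.3 and 69.3 CPM), and no other class passed a median of 12.8 CPM. Gli3 (158 against 290 CPM) and Boc (360 against 456) had lower medians in the capsule than in the zona glomerulosa. Of the 15 hedgehog genes, 3 were higher in the capsule than in the stroma in every library and 3 lower. Over the 5874 genes above the shares were 16.5% and 22.3%. The co-receptor genes Cdon (279 against 174 CPM) and Gas1 (29.0 against 5.78) were among the higher ones. Ptch1, Gli2 (170 against 260 CPM) and the inhibitor gene Sufu (53.8 against 131) were lower in every library. Hhip, which encodes a membrane decoy for the ligands, had a median of 199 against 61.6 CPM and was higher in 5 of 6 libraries.

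Within the capsule, hedgehog genes varied between nuclei along the main axis of variation. The axis was computed for each library from the other 5, over 1000 genes with the hedgehog list left out, and each library's nuclei in the capsule cluster were split at their median score. This measure was chosen after values had been seen, and carries no test. The axis is described here as a range, and whether it holds separate cell types was not tested. It held 1.27% to 1.53% of the variance of those genes. Of the 738 nuclei, 151 lay within 0.25 of a standard deviation of their library's median. The ends are the sides of that median and not types. The weights of the axis correlated at 0.97 to 1.0 with those of the axis from all libraries, over the genes in both. Each such axis shared 587 to 641 of the 738 nuclei with that one. The correlations therefore say little about agreement between libraries. One end was led by Fgf13, Col25a1, Ptn and Nebl, and the other by Celf2, Scara5, Hmcn1, Thsd7a and Rgs6. Median depths at the Celf2 and Fgf13 ends were 3570 and 4138.5 UMIs in KO replicate 1, 1001 and 928.5 in KO replicate 2 and 4430 and 5467.5 in WT replicate 1. They were 1251.5 and 1280 in WT replicate 2, 3045.5 and 3139 in WT replicate 3 and 3008 and 3258 in the unassigned library.

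Hhip was higher at the Fgf13 end in 6 of 6 libraries. It stood at 268 and 310 CPM there in KO replicates 1 and 2, at 407, 365 and 488 CPM in WT replicates 1 to 3 and at 716 CPM in the unassigned library, against 47.6, 0, 56.2, 80.7, 40.1 and 12.2 CPM at the Celf2 end in the same order. No value of one end reached those of the other, and the median difference was 3.1 on the log2 scale of CPM plus 5. Ptch1 stood at 1122, 1510, 1371, 1404, 858 and 585 CPM at the Fgf13 end and at 444, 787, 535, 611, 357 and 163 CPM at the Celf2 end (median difference 1.29). Its ends overlapped across libraries but not within any. Both genes, whose products hold back the pathway and whose transcription it drives, were higher at the Fgf13 end in every library. So were 3.51% of the 5752 genes outside the axis that were seen in at least 5% of nuclei. The axis took the genes of largest variance, after the hedgehog list had been left out. The 5752 thus lack the most variable other genes, and shares among them are not a like background for hedgehog genes.

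The co-receptor genes ran the other way. In the same order of libraries Cdon stood at 106, 232, 166, 211, 137 and 153 CPM at the Fgf13 end and at 344, 356, 455, 323, 377 and 509 CPM at the Celf2 end (median difference -1.43). Boc (-0.57) and Gas1 (-0.66) were also lower at the Fgf13 end in 6 of 6 libraries. So were 3.53% of the same 5752 genes, a share with the limit given above. Gli1, higher at the Fgf13 end in 3 of 6 libraries, Gli3 (3 of 6) and Smo (3 of 6) had no common direction. Of the choosing genes, Ntng1 (0.83), Luzp2 (0.83) and Rspo3 (0.38) were higher at the Fgf13 end in every library, and Npnt (-0.36) and Vwc2 (-0.93) lower. Fgf13 and Vwc2 were among the genes that formed the axis. Members had to hold at least 3 of the choosing genes, so a nucleus without Fgf13 was kept only if it held others. The rule can thus tie these genes to each other along the axis, and its part was not tested.

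**Figure D3:**
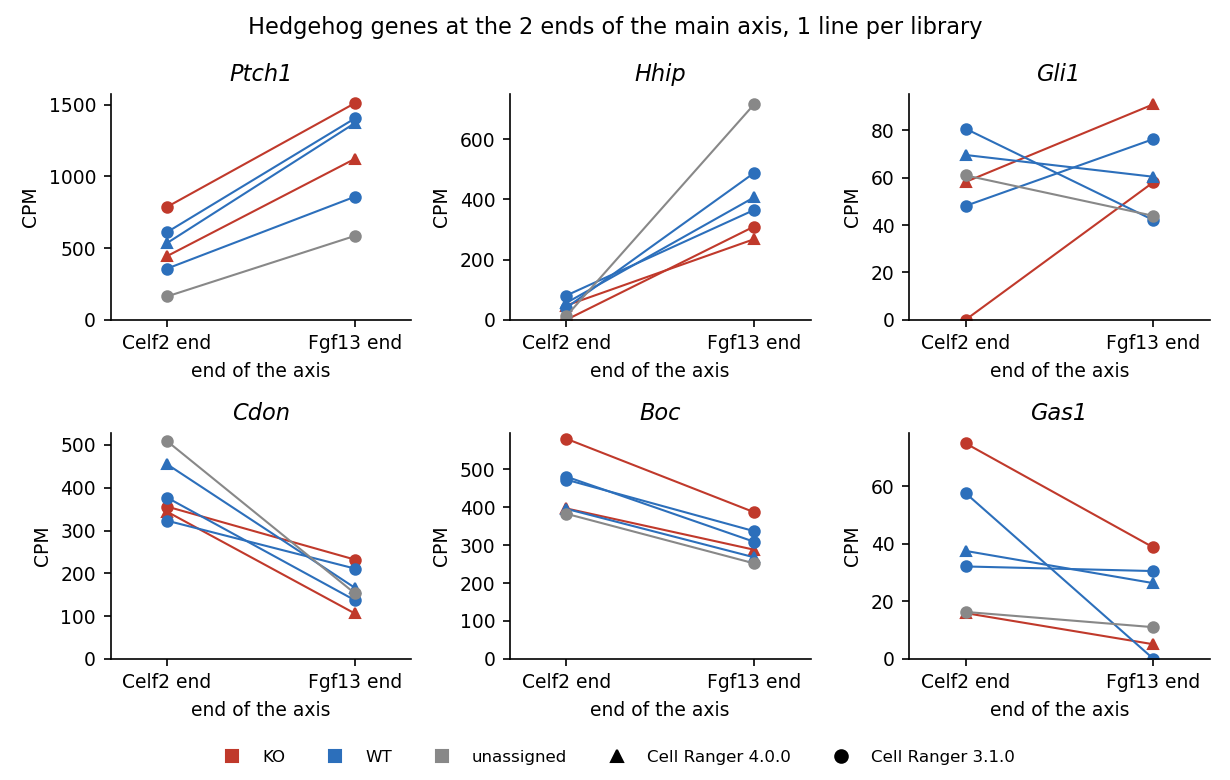
CPM of 6 hedgehog genes in the capsule nuclei at the Celf2 end and at the Fgf13 end of the main axis, 1 line per library, coloured by genotype, with triangles for the libraries of the later annotation. Ptch1 and Hhip rise toward the Fgf13 end in 6 of 6 libraries, Cdon, Boc and Gas1 fall in 6 of 6, and the lines of Gli1 cross.

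The first question of the design was whether the loss of Tmem127 changed the size of the capsule population. Capsule nuclei took 3.36% (108 of 3217 nuclei) and 3.52% (98 of 2788) of the KO libraries, 3.4% (152 of 4474), 3.33% (109 of 3271) and 4.48% (158 of 3526) of WT replicates 1 to 3, and 4.18% (155 of 3706) of the unassigned library. The KO shares lay inside the range of the WT shares. The KO mean was 3.44% ± 0.112 (SD, n = 2) and the WT mean 3.74% ± 0.645 (SD, n = 3; exact two-sided permutation p = 0.9 on the logit scale). With 2 against 3 libraries that test has 10 splits and cannot give less than 0.1. Exact 95% binomial intervals ran from 2.76% to 4.04% in KO replicate 1 and from 3.82% to 5.22% in WT replicate 3, the highest, and cover counting error only. Within the later annotation the shares were 3.36% in KO and 3.4% in WT, and within the earlier one 3.52% against 3.33% and 4.48%. The DAPI sort and the lowest depth at which barcodes were kept before deposit, 500 to 511 UMIs, can set such shares.

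Among capsule and Gata4/Prdm6 stromal nuclei together, capsule nuclei took 41.9% and 29.9% in the KO libraries, 55.1%, 43.3% and 33.7% in WT replicates 1 to 3 and 37.3% in the unassigned one. The groups overlapped: KO replicate 1 lay above WT replicate 3. The means were 35.9% ± 8.47 (SD, n = 2) and 44.0% ± 10.7 (SD, n = 3), with an exact two-sided permutation p of 0.4. Within each annotation batch the KO library was the lower, at 41.9% against 55.1%, and at 29.9% against 43.3% and 33.7%.

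**Figure D4:**
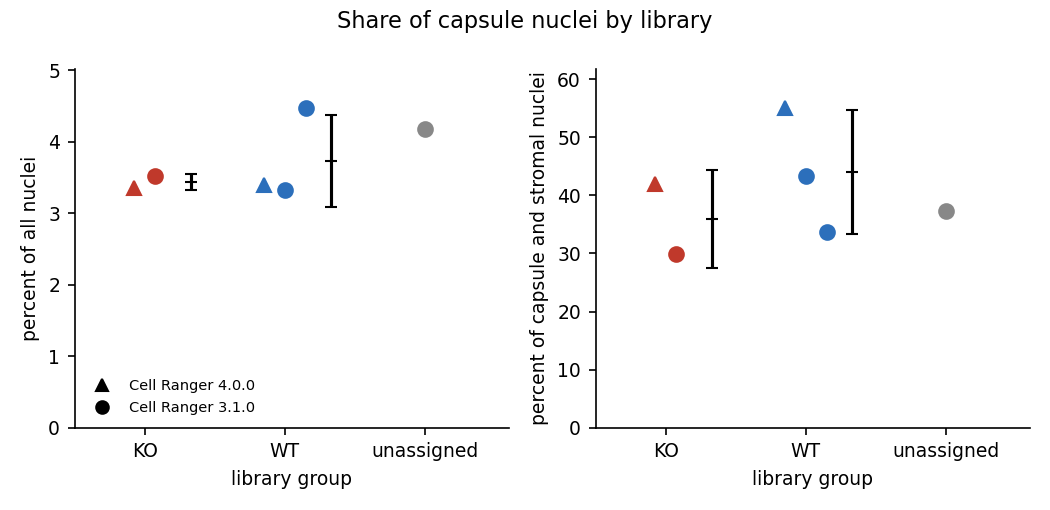
Capsule nuclei as a percentage of all nuclei (left) and of capsule and Gata4/Prdm6 stromal nuclei (right), 1 point per library, with triangles for the libraries of the later annotation and bars for mean ± SD of the 2 KO and 3 WT libraries. KO points lie within or below the range of WT points in both panels.

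The second question was whether gene expression in capsule nuclei differed between genotypes. Tmem127 (chromosome 2, 127247908 to 127261107), which encodes an endosomal membrane protein that restrains mTOR signalling, stood at 37.5 and 18.9 CPM in KO (18 and 2 UMIs) and at 25.7, 46.3 and 32.7 CPM in WT (22, 8 and 18 UMIs). The groups overlapped, with a log2 fold of 0.09 ± 0.53 (SE; edgeR quasi-likelihood test, adjusted p = 1). Since the deleted part is not given, these 3′ tags do not check the labels. By the same test on counts summed per library, with the annotation batch as a term, 0 of 7448 genes (0%) passed an adjusted p of 0.05. At an unadjusted p under 0.05 there were 282 (3.79%), 152 with folds above 0 (2.04%) and 130 below (1.75%), and DESeq2 also called 0 genes, with 66 at an unadjusted p under 0.05.

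The 10 genes of smallest p are given as values. They were picked by that p, so separation of their KO and WT libraries adds nothing to it. How many of all 7448 genes separate the groups in this way was not counted. Adamts9, a secreted metalloprotease of the matrix, stood at 223 and 199 CPM in KO and at 584, 445 and 512 CPM in WT, with 821 CPM in the unassigned library. Both KO libraries lay below every WT library, and the log2 fold was -1.33 ± 0.24 (SE; edgeR, adjusted p = 0.378). Adamts9 stood at 910 to 1122 CPM in the stromal nuclei of all 6 libraries, and there its fold was -0.15. Egr1, an immediate early transcription factor, stood at 25 and 227 CPM in KO and 7.0, 40.5 and 58.1 CPM in WT (114 in the unassigned library). Its groups overlapped, and it was higher in KO within each annotation batch (fold 2.04 ± 0.41, edgeR adjusted p = 0.378). Xkr4 (121 and 56.8 CPM in KO; 236, 226 and 221 in WT) and Ptprc, the leucocyte antigen CD45 (4.17 and 0 CPM; 61.8, 40.5 and 10.9), also had lower KO libraries. Of the 69 Ptprc molecules of the 6 libraries, 53 came from WT replicate 1. The nuclear receptor gene Esrrg (117 and 94.6 CPM; 45.5, 17.3 and 23.6) was higher.

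For the remaining 5 of the 10 every KO value exceeded every WT value, and their stromal folds are given beside those of the capsule. Gm42418, an annotated gene that overlaps ribosomal RNA, stood at 17137 and 15059 CPM in KO, at 8862, 9080 and 4884 CPM in WT and at 4097 CPM in the unassigned library. Its fold was 1.05 in capsule and 0.92 in stromal nuclei. Cmss1 stood at 2422 and 1788 CPM in KO and 1033, 954 and 370 CPM in WT, with 339 CPM in the unassigned library (fold 1.37, and 1.33 in the stroma). Cdk8 (1.09), the kinase of the Mediator complex, Taco1 (1.16) and Gm48099 (2.76) had stromal folds of 0.38, 1.09 and 2.39. The list of chromaffin markers includes Th, Dbh, Slc18a1, Chga and Chgb. The rule left out nuclei with 3 or more of these, which limits the sum of the list in capsule nuclei. Summed chromaffin markers in capsule nuclei, 119 and 170 CPM in KO and 86.3, 110 and 70.8 CPM in WT over 10 genes of which none was at 0 throughout, also exceeded every WT value in both KO libraries, against a median of 7304 CPM in chromaffin nuclei. The part of either in these results was not tested.

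**Figure D5:**
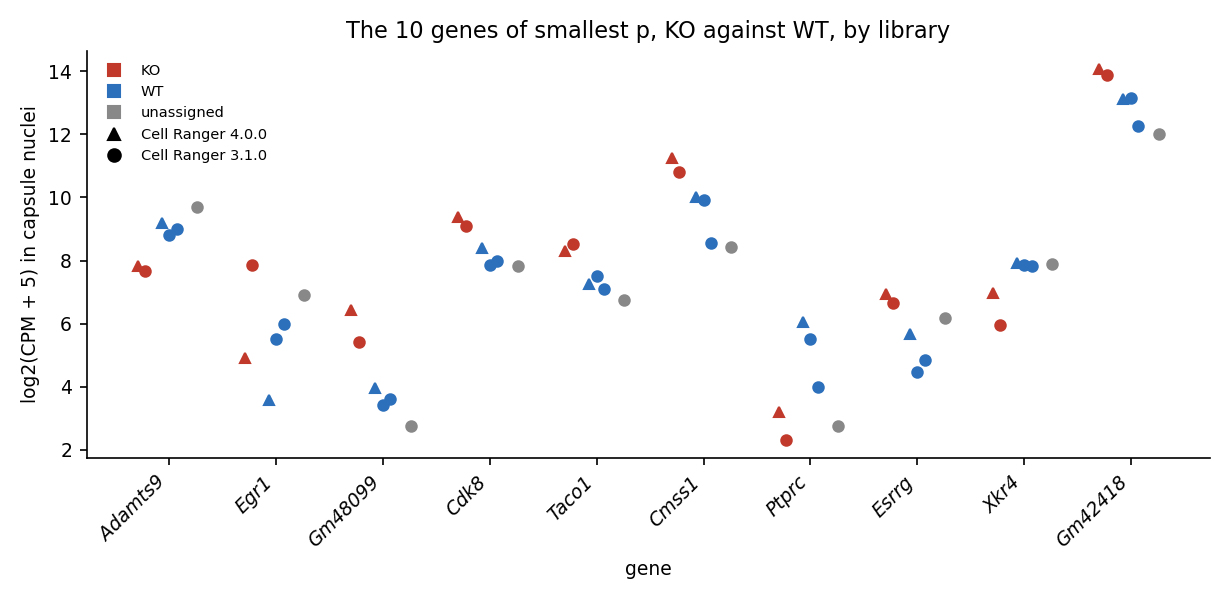
Level in capsule nuclei, as log2 of CPM plus 5, of the 10 genes with the smallest p between genotypes, 1 point per library, coloured by genotype, with triangles for the libraries of the later annotation. None passed the adjusted threshold. KO and WT points do not overlap for 9 of the 10, picked by their p, and for Egr1 they do. Such separation was not counted over all genes.

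Gene lists of the capsule were described by their counts and medians, beside a median fold of 0.00 over all 7448 genes. How many of all these genes separate the KO from the WT libraries was not counted. Separations of single genes are therefore given as values only. Of the 9 genes tested on the list of R-spondins, Wnt ligands and their processing, none passed, and the median fold was 0.07. Wls, the carrier that brings Wnt ligands to the cell surface, had the one unadjusted p under 0.05: it stood at 138 and 114 CPM in KO and 279, 249 and 156 CPM in WT, groups that did not overlap, with a fold of -0.92 ± 0.30 (SE; edgeR, adjusted p = 1). Rspo3 did not separate the groups, at 2743 and 3538 CPM in KO and 3025, 3158 and 2968 CPM in WT. Of the 12 hedgehog genes tested, 5 had folds above 0 and the median was -0.07. Hhip stood at 131 and 151 CPM in KO, 208, 191 and 251 CPM in WT and 342 CPM in the unassigned library. Its KO libraries lay below every WT library, with a fold of -0.62 ± 0.27 (SE; edgeR, adjusted p = 1). None of the 27 collagen (median fold 0.08), 35 matrix glycoprotein (-0.04), 20 stromal transcription factor (-0.10), 15 BMP and TGF-beta (-0.08) or 10 integrin genes (-0.14) passed either.

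The immediate early and heat shock list had the median farthest from 0. All 6 of its tested members had folds above 0, with a median of 0.86, and 3 of the 6 had an unadjusted p under 0.05, where 2.04% of all genes tested did so in that direction. These were Egr1, the phosphatase gene Dusp1 (41.7 and 47.3 CPM in KO; 12.8, 17.3 and 29.0 in WT) and the nuclear receptor Nr4a1 (31.3 and 284 CPM in KO; 29.2, 104 and 49.0 in WT). The unassigned library had 114, 103 and 313 CPM of the 3 genes, of which the values of Dusp1 and Nr4a1 exceeded those of every other library. The high KO levels of Egr1 and Nr4a1 were those of KO replicate 2, while KO replicate 1 lay within the WT range for both. KO replicate 2 also had the most mitochondrial transcripts in capsule nuclei, 2497 CPM against 525 to 1492 in the other libraries, and their part in these values was not tested. None of the list passed the adjusted threshold.

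The third comparison asked whether the genotype effect differed between capsule and Gata4/Prdm6 stromal nuclei of the same libraries. In the stromal nuclei 0 of 8448 genes passed by edgeR's quasi-likelihood test. The difference itself passed for 2 of 8584 genes (0.0233%), Hpgd and Prr16, by the same tool with Benjamini-Hochberg adjustment, and 414 (4.82%) had an unadjusted p under 0.05. Hpgd, the enzyme that inactivates prostaglandins, stood at 123 and 47.3 CPM in KO and 44.3, 86.7 and 54.5 CPM in WT in the capsule, and at 4.39 and 2.56 CPM in KO and 35.3, 6.87 and 27.9 CPM in WT in the stroma. Its groups overlapped in the capsule and did not in the stroma, with a difference of 4.05 ± 0.78 log2 (SE, adjusted p = 0.0110). Prr16, a gene linked to cell size, stood at 127 and 9.46 CPM in KO and 24.5, 11.6 and 10.9 CPM in WT in the capsule, and at 39.5 and 7.67 CPM in KO and 93.3, 13.7 and 19.9 CPM in WT in the stroma (3.29 ± 0.61, adjusted p = 0.00864). The high Prr16 level in the capsule rested on KO replicate 1, since KO replicate 2 held 1 UMI. Without KO replicate 1 neither call remained (adjusted p = 0.968 for Hpgd and 1 for Prr16), nor without WT replicate 1 (0.968 and 0.996) nor when the unassigned library joined the KO group (0.172 and 0.373) or the WT group (0.350 and 0.0788). With doublets kept the Prr16 difference was 1.1 (adjusted p = 0.751), and DESeq2 called 0 genes. Adamts9 (-1.24 ± 0.29, adjusted p = 0.0644) and Hhip (-1.53 ± 0.40, adjusted p = 0.119) did not pass.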

How the data were processed

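UMI counts per gene and nucleus were deposited by the authors as 1 matrix per library, made with Cell Ranger against mm10 per the submitters' processing notes, version 4.0.0 for KO replicate 1 and WT replicate 1 and 3.1.0 for the others per the file headers. The 30406 genes in both annotations were used; positions are those of the GENCODE M21 annotation of that build. Barcodes with under 300.0 genes or over 5% mitochondrial UMIs (48 of 21724) and 694 marked doublets were removed, 54 of which met the rule. Nuclei were embedded (2000 variable genes, 30 components, Harmony written in numpy) and clustered (Leiden, leidenalg 0.10.2, resolution 0.8, 24 clusters). For each library and class the counts were added up and tested with edgeR 4.0.16 (quasi-likelihood, TMM, filterByExpr, annotation batch, Benjamini-Hochberg), with DESeq2 1.42.0 as an alternative, and the scripts were tested on simulated data. Standard errors are the fold over the square root of F. The difference of effects had terms for library, class, class by batch and class by genotype. Shares were tested by exact permutation.

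Named genes were Tmem127, the choosing genes, the 10 smallest p-values between genotypes (none passed), members of the 18 lists, and the 20 highest and 10 lowest over stroma. Of 14 lists of other cell types' markers, summed over capsule nuclei, both KO sums exceeded all WT sums for chromaffin cells, some of whose markers the rule used. For B and plasma cells, a list that includes Ebf1, both KO sums lay below all WT sums (854 and 927 against 1167, 1029 and 1442 CPM). The other 12 overlapped. Not all of these sums were small beside the median of their own class. Zona fasciculata markers stood at 870 to 1846 CPM in capsule nuclei against 3474, and pericyte and smooth muscle markers at 185 to 586 against 1760. The members and lists were chosen with earlier results of these data known. Some results are not reported here. No labels tie libraries to shared litters or days.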

Additional observations from a re-analysis of the deposited data

Results flagged for a closer look

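The effect of genotype differed between capsule and Gata4/Prdm6 stromal nuclei for Prr16, by 3.29 on the log2 scale, and for Hpgd, by 4.05, in edgeR's test of the difference itself. Both rest on few molecules: Prr16 had 61 and 1 UMIs in the capsule nuclei of the KO libraries and 21, 2 and 6 in those of the WT libraries, and Hpgd 59 and 5, and 38, 15 and 30. The stromal folds alone were -1.28 for Prr16 and -3.01 for Hpgd (adjusted p = 0.664 and 0.423, edgeR). Groups of 2 and 3 libraries were too small to look for outlying samples.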

How the results depend on the processing

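The permutation test of the shares cannot go below 0.0667 to 0.333 in any setting run, so its p-values say nothing about stability. No alternative gave the same count for the difference between classes. The difference in the capsule share of all nuclei (-0.301 percentage points) ran from -0.503 to 0.0713 when a library was left out, and reversed without WT replicate 3; over all alternatives the exact permutation p was 0.4 to 1. The share among capsule and stromal nuclei (-8.14 points) ran from -14.1 to -2.14 when a library was left out. Against 0 genes called between genotypes, 12 of 17141 passed with no filter on low counts and 7 with at least 4 choosing genes. Leaving out a library gave 0 to 26: 4 without KO replicate 1, 20 without KO replicate 2, 26 without WT replicate 1 and 26 without WT replicate 3. Adamts9 passed with no filter, with at least 4 choosing genes and without WT replicate 3, and its adjusted p ran from 0.000896 to 1. Against 2 genes called for the difference between classes, 14 passed with no filter, 27 with doublets kept, 12 with at least 4 choosing genes, 0 with DESeq2, 1 with the unassigned library as KO and 0 with it as WT. Prr16 was not among the 27, and the 1 gene was Rapgef5, neither Prr16 nor Hpgd. Leaving out a library gave 0 to 29 (1 without KO replicate 1, which was Rgs6, 29 without KO replicate 2, 0 without WT replicate 1, 20 without WT replicate 2 and 9 without WT replicate 3). Tmem127 (0.09, range -0.97 to 0.52 when a library was left out) reversed to -0.11 with DESeq2, -0.03 with no batch term, -0.97 without KO replicate 1 and -0.93 without WT replicate 1. Gli1 along the axis reversed to -0.10 with 500 genes, an alternative chosen after seeing the data, as were keeping the hedgehog genes in the axis and restricting both classes to stromal clusters. The cause was not tested. No paired analysis was possible because the labels give no replicate numbers that tie KO to WT libraries. KO replicate 2 and WT replicate 2, the shallowest, limit what low genes can show.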
